A study of Mus musculus with 6 samples.

Results

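The genes of cholesterol and fatty acid synthesis, together with the regulators and transporters of sterols, were compared between WT and Irf1-/- mouse Th9 cells by RNA-Seq. The group was a fixed list of 31 gene symbols, each matched through its Ensembl identifier to 1 of the 41388 genes of the table, and all 31 passed the filter for testing. By role, 7 members act on the way from acetyl-CoA to farnesyl diphosphate, 11 on the way from there to cholesterol, 5 sense sterols, 5 make fatty acids and 3 move sterols. The 6 libraries came from 3 WT and 3 Irf1-/- cultures. Each culture held T cells of C57BL/6 background that had been taken from spleen and lymph nodes by negative magnetic selection, described in the study's methods as naive CD4+ cells of mice aged 8 to 12 weeks. For part of the study's experiments such cells were also purified by flow cytometry as CD44-CD62L+, and whether these cultures were among them was not stated. All cultures, WT included, were kept for 2 days with IL-2, IL-4, TGF-β and IFN-γ, the last at 5 ng per ml. The comparison is thus of genotypes under IFN-γ and holds no culture without it. The study's general methods for mouse T cells also list stimulation by plate-bound antibodies to CD3 and CD28, and an antibody against mouse IFN-γ. There the added IFN-γ is the rat protein, and the RNA-Seq methods do not repeat these details. The mutant mice lack IRF1 in every cell and were bred in house, whereas the C57BL/6 mice were purchased. The number of animals behind each culture was not stated.

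Cholesterol is built from acetyl-CoA through mevalonate and squalene. When the endoplasmic reticulum is poor in sterols, SCAP carries the SREBP transcription factors to the Golgi for cleavage, and the released factors activate genes of sterol and fatty acid synthesis, whereas INSIG proteins hold SCAP back when sterols are plentiful. The oxysterol receptors LXR drive the efflux transporters ABCA1 and ABCG1. Activated T cells raise this programme to make membranes before they divide.

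The libraries held between 5639788 and 13348230 reads on genes, with replicate 3 of each genotype the largest, and the deposited values are normalized counts, that is reads divided by a size factor of the library. In bulk RNA a lower value can come from fewer cells of a type or from less RNA per cell, and these cannot be told apart. Irf1, the targeted gene, had normalized counts of 2968, 2907 and 2660 in WT and 1780, 1729 and 1476 in Irf1-/- cultures, with means of 2845 ± 163 (SD, n = 3) and 1662 ± 163 (SD, n = 3), so that the mutant cultures still held Irf1 transcripts. The T cell markers Cd3d, Cd3e, Cd3g, Cd4, Cd5, Thy1, Trac and Lck were present in all libraries, with sums of 17166 to 17520 in WT and 17592 to 18608 in Irf1-/- cultures. Within these sums Thy1 was higher in Irf1-/- cultures by 0.997 on the log2 scale (limma adjusted p = 0.00274), while Cd3e and Trac were lower, by -0.30 (0.00535) and -0.32 (0.00632). Cd8a and Cd8b1 together reached at most 41.2, and 3 of 4 NK cell markers were at 0. The 9 myeloid markers summed to 603 to 796 in WT and 261 to 1324 in Irf1-/- cultures, and these markers moved in different directions. Ctss, which carried 480.1 to 559 of the WT sums, and Mpeg1 were lower in Irf1-/- cultures, with log2 fold changes of -1.05 (limma adjusted p = 4.69e-05) and -1.16 (0.0367), whereas Lyz2 and Cd14 were highest in Irf1-/- replicate 2 at 559 and 334. The 5 B cell markers summed to 612 to 827 in WT and 449 to 536 in Irf1-/- cultures, mostly from Ighm. The Y-linked genes Ddx3y, Eif2s3y, Kdm5d and Uty summed to 2301 and 2306 in WT replicates 1 and 2 and to at most 11.1 in the other 4 libraries, in which Xist lay between 16973 and 19403, although the methods describe mice matched for sex. Genotype and this difference in sex-linked transcripts are thus partly confounded, and results are also given for the 4 libraries with Xist, an alternative chosen after seeing the data.

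RefSeq promoters of GRCm38.p6, from 250 bases before to 50 bases after the start of transcription, were at hand for 24 of the 31 members. CCAAT, the letters of the box bound by NF-Y, which assists SREBP at many sterol genes, was present on either strand in the promoters of 20 of the 24, against 41.1% of 27025 genes in the table of promoters. It occurred in 4 of the 5 members with promoters that were higher in Irf1-/- cells and in 3 of the 4 that were lower. TCACNCCAC, the core of the sterol regulatory element, was found only in Hmgcs1 among the 24, against 1.44% of all genes, and the core of the interferon-stimulated response element only in Ebp, against 3.99%. A match of letters is no binding site, and the absence of one says only that these letters were not in the window. The promoters of the 3 called members with the most CCAAT matches and of Hmgcs1 are given below 5′ to 3′ on the strand of the gene, to show how these letters lie ahead of genes that moved in different directions. This choice was made after the values were seen. Capitals mark CCAAT or its reverse complement, and in Hmgcs1 also the TCACNCCAC match, which starts 137 bases before the start of transcription.
Mvk (chr5:114444019-114444318, + strand): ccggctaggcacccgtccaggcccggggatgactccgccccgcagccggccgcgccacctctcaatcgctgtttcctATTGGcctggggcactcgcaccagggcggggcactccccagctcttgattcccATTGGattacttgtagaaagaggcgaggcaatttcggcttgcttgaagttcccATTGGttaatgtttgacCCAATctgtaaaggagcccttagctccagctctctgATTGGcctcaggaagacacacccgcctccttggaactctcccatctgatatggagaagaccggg
Fasn (chr11:120824498-120824797, - strand): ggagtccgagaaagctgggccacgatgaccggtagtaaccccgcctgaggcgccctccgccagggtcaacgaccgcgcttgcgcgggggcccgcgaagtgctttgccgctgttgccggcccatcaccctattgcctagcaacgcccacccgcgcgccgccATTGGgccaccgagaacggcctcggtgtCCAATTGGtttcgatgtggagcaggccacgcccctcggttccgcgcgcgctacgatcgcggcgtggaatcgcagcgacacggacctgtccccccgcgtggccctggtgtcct
Mvd (chr8:122443373-122443672, - strand): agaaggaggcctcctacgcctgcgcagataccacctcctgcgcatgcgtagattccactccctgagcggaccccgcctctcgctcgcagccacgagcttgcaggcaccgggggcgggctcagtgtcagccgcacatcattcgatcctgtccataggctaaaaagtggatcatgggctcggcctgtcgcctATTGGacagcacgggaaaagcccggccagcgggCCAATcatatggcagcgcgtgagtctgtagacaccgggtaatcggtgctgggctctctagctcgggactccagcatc
Hmgcs1 (chr13:119690101-119690400, + strand): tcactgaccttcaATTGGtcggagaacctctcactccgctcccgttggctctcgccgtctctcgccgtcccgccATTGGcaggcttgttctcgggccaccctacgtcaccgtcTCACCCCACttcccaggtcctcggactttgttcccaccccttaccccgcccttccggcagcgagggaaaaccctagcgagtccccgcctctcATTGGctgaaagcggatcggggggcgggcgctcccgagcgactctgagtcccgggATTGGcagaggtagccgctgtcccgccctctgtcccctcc
Of these 4 genes, Mvk and Mvd were higher, Fasn was lower and Hmgcs1 was not called different in Irf1-/- cells. In the 32 promoters of the 24 members, 26 of 43 CCAAT matches began within the 100 bases before the start. Positions were not counted over all promoters, so that nothing particular to the members can be read from this.

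The members covered a wide range of levels, here given as the mean normalized count over the 6 libraries per kilobase of annotated exon. Scd2, a stearoyl-CoA desaturase that introduces the double bond of oleate, was the highest with 4207 per kilobase, followed by Scd1 with 1294, Cyp51 with 1010.5, Acly with 974 and Fasn with 929. Fatty acid synthesis thus held 4 of the 5 highest levels. The lowest were the efflux transporter gene Abca1 with 7.59 per kilobase, Idi1 with 39.1, Abcg1 with 42.0 and Tm7sf2 with 42.4. The exon length is the union of all annotated transcripts, which lowers this level for genes with many long isoforms, such as Acaca with 17074 bases.

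Between genotypes the differences were small and went in opposite directions. Called different are genes with a limma adjusted p under 0.05, and these were 12 of the 31 members, against 23.7% of the 11379 genes tested. Of these, 7 were higher in Irf1-/- cells, where 11.4% of all genes tested were higher, and 5 were lower, where 12.4% of all genes were lower. All 7 that rose were enzymes of sterol synthesis, namely Acat2, Mvk, Mvd, Fdps, Fdft1, Lss and Tm7sf2. Those that fell were Sc5d and Cyp51 of the late sterol steps, Fasn and Acaca of fatty acid synthesis, and the transporter gene Abcg1. The log2 fold changes of the called members ranged from 0.16 to 0.62 in size. Over all 31 members the median log2 fold change was 0.04, beside -0.0037 over all genes tested, and the median size was 0.21 beside 0.17. The median standard error was 0.0643 for the members and 0.0997 for all genes tested. For 18 members, or 58.1%, the WT and Irf1-/- values were fully separated, against 40.5% of all genes tested. For each of these 18 the exact two-sided permutation p over samples was 0.1, the smallest that 3 samples against 3 allow. The number of lower members depended on single libraries, being 2 without Irf1-/- replicate 2, where 7.87% of all genes tested were lower. It was 3 without WT replicate 1, WT replicate 2 or Irf1-/- replicate 1, where 7.29%, 7.26% and 8.82% of all genes were lower.

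**Figure D1:**
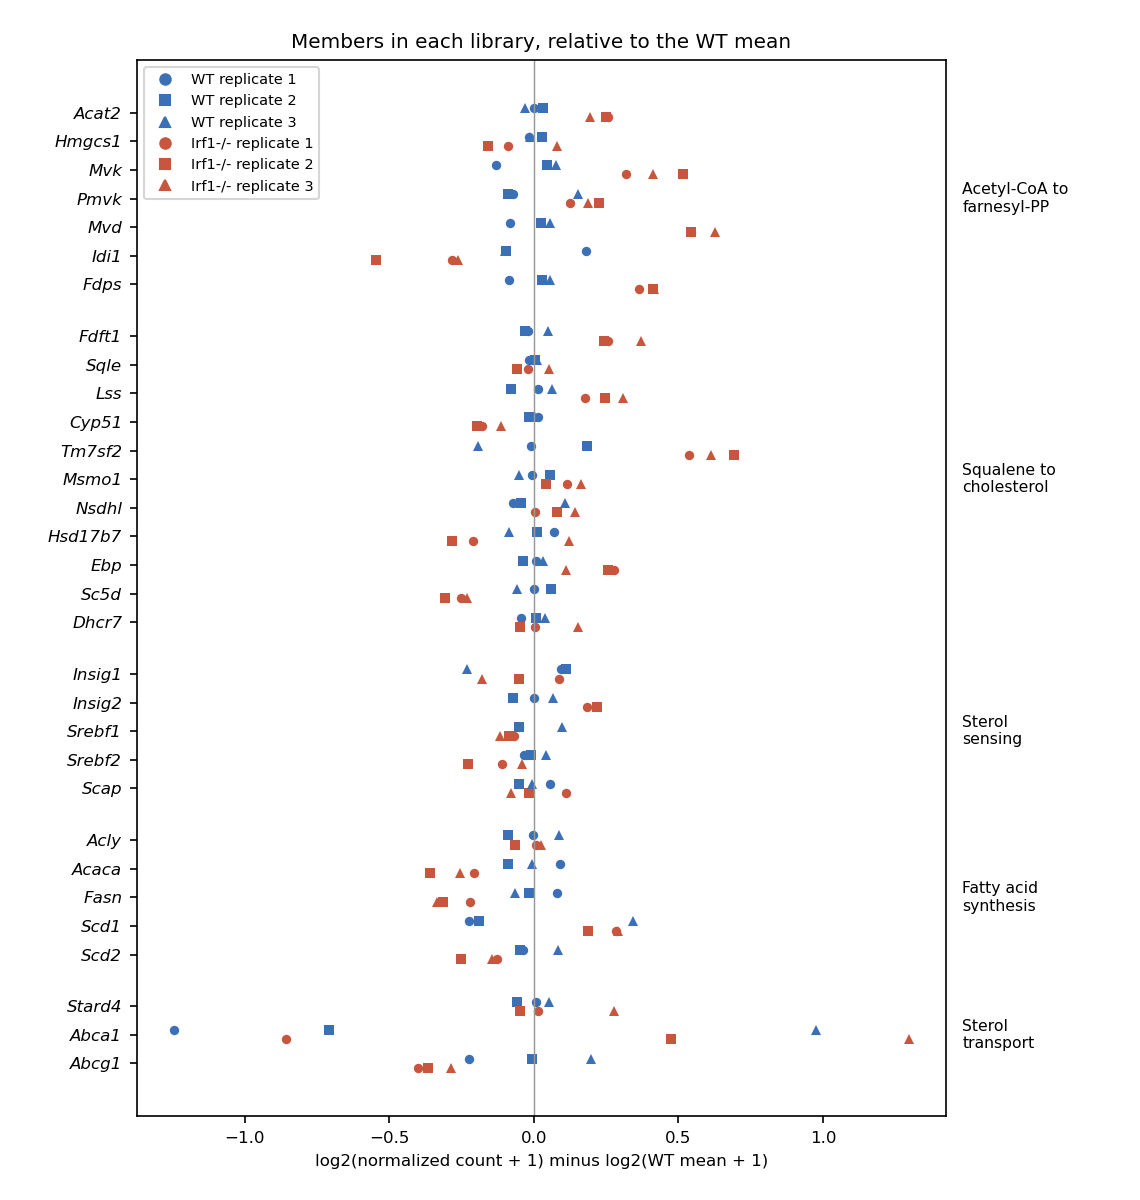
Level of each of the 31 members in each library, as log2(normalized count + 1) minus the log2 of the WT mean + 1, with WT libraries in blue, Irf1-/- libraries in red and a symbol for each replicate. Most points lie close to 0, Mvd and Tm7sf2 are shifted to the right in all Irf1-/- libraries, and Abca1 varies far more between replicates than between genotypes.

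**Figure D2:**
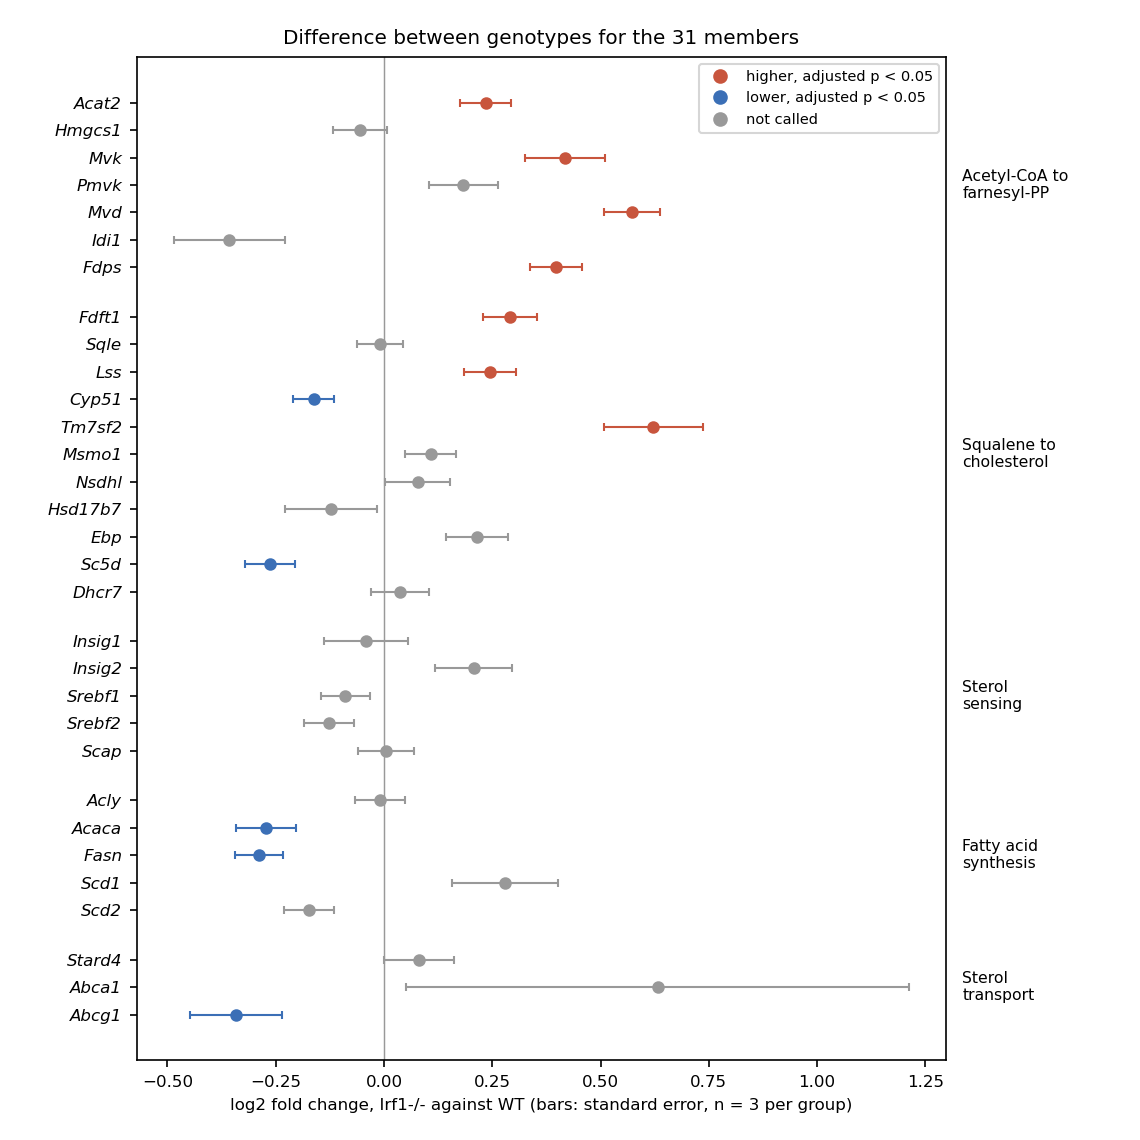
Log2 ratio of Irf1-/- to WT for each member with its standard error (n = 3 per group) from limma, ordered by role. The 7 members higher at an adjusted p below 0.05 are red and all lie in sterol synthesis. The 5 lower ones are blue and the others grey.

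The early steps, from acetyl-CoA to farnesyl diphosphate, held 4 higher and no lower member among 7. Mvd (chromosome 8 of GRCm38 from 122433601 to 122443422), which encodes the decarboxylase that makes isopentenyl diphosphate, was measured at 560.3, 604 and 617 normalized counts in WT and at 866, 865 and 918 in Irf1-/- cultures. The mean rose from 593 ± 29.4 (SD, n = 3) to 883 ± 30.1 (SD, n = 3), a log2 fold change of 0.57 (standard error, SE, 0.0642, limma adjusted p = 1.90e-04). It kept this call under all 18 alternative settings of the analysis (pseudocount, filter, scaling, tool, covariate or libraries left out), and the lowest Irf1-/- value lay well above the highest WT value. Fdps (chromosome 3 from 89093588 to 89101959), the farnesyl diphosphate synthase, had 840, 910.1 and 926 in WT and 1149, 1186 and 1189 in Irf1-/- cultures. Of its exon bases 26.7% also belong to Gm43738 on the same strand. The groups were again apart, with a log2 fold change of 0.40 (SE 0.0594, limma adjusted p = 0.00113). Mvk (chromosome 5 from 114444269 to 114460591), the mevalonate kinase, had 225, 254 and 259 in WT and 307, 352 and 327 in Irf1-/- cultures, a log2 fold change of 0.42 (limma adjusted p = 0.00867). Acat2 (chromosome 17 from 12942890 to 12960747) encodes the cytosolic thiolase of the first step and has a close paralogue, Acat3, with which it may share reads. Its values were 674, 689 and 659 in WT and 806, 802 and 771 in Irf1-/- cultures, a log2 fold change of 0.23 (limma adjusted p = 0.0155, 0.0031 to 0.0614 over the alternatives). The call of Acat2 was lost without WT replicate 1 (adjusted p = 0.0573), Irf1-/- replicate 1 (0.0614) or Irf1-/- replicate 2 (0.0521) in limma.

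The remaining members of these early steps were not called. Hmgcs1, the HMG-CoA synthase gene whose promoter held the sterol regulatory element letters, had 3146, 3246 and 3149 in WT and 2991, 2849.9 and 3360.2 in Irf1-/- cultures. Its groups overlapped, and the log2 fold change was -0.06 with a 95% interval of -0.20 to 0.08, and it was called lower in replicates 1 and 2 alone (limma adjusted p = 0.0242, with 0.0242 to 0.973 over the alternatives). Idi1, which encodes the isomerase of isopentenyl diphosphate, had 175, 144 and 144 in WT and 127, 105 and 129 in Irf1-/- cultures. Its groups did not overlap and the log2 fold change was -0.36, but the adjusted p was 0.0668 in limma. It was called lower with quantile normalization (adjusted p = 0.0387 in limma) and in replicates 1 and 2 alone (0.0121), with 0.0121 to 0.236 over the alternatives. Pmvk, the phosphomevalonate kinase, had means of 501 and 567. It was called higher without WT replicate 3 (adjusted p = 0.0247 in limma, 0.00681 to 0.588 over the alternatives), whose value of 556 lay among those of the Irf1-/- cultures.

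In the steps from farnesyl diphosphate to cholesterol, 3 of 11 members were higher and 2 lower. Tm7sf2 (chromosome 19 from 6062821 to 6068373), a sterol C14-reductase, had 146, 167 and 128 normalized counts in WT and 214, 239 and 226 in Irf1-/- cultures. With a log2 fold change of 0.62 (SE 0.115, limma adjusted p = 0.00357), it had the largest change among the called members, although from a low level. It shares 12.1% of its exon bases with Vps51 on the same strand, which had a log2 fold change of 0.17 (limma adjusted p = 0.118). Fdft1 (chromosome 14 from 63145150 to 63179578), the squalene synthase that commits farnesyl diphosphate to sterols, had 654, 650.4 and 687 in WT and 793, 786 and 859 in Irf1-/- cultures. The log2 fold change was 0.29 (limma adjusted p = 0.00836). Of its exon bases 18.3% lie across from exons of Ctsb, a cathepsin gene that itself had a log2 fold change of -0.0052. Lss (chromosome 10 from 76531588 to 76557138), the lanosterol synthase, had 1375, 1290.0 and 1422 in WT and 1541, 1617 and 1687 in Irf1-/- cultures. Its log2 fold change of 0.25 (limma adjusted p = 0.0138) lost the call without WT replicate 2 (adjusted p = 0.0719, 3.01e-04 to 0.0719 over the alternatives) and with no trend in limma (0.0657).

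The lower genes of this segment encode demethylation and desaturation steps. Sc5d (chromosome 9 from 42251595 to 42264256), the sterol C5-desaturase, had 1178, 1226 and 1129.8 in WT and 989.8, 951 and 1004 in Irf1-/- cultures. Its values did not overlap, with a log2 fold change of -0.26 (SE 0.0576, limma adjusted p = 0.00866). The call was kept under all 18 alternative settings, at adjusted p-values from 2.77e-05 to 0.0496, the highest just under the threshold. Cyp51 (chromosome 5 from 4081145 to 4104746), which removes the 14-methyl group of lanosterol, had 4755, 4655 and 4726 in WT and 4164, 4111 and 4357 in Irf1-/- cultures. The decrease of Cyp51 was the smallest of all called members, with a log2 fold change of -0.16 (limma adjusted p = 0.0313, 4.59e-04 to 0.118 over the alternatives). It was not called without WT replicate 1 (adjusted p = 0.118), WT replicate 2 (0.0881), Irf1-/- replicate 1 (0.105) or Irf1-/- replicate 2 (0.0993) in limma, nor without a filter (0.0678), with quantile normalization (0.0826) or with no trend (0.107). Cyp51 and Tm7sf2 catalyse consecutive reactions, and their fold changes were opposite in sign.

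The other 6 members of this segment did not pass the test. Sqle, the squalene epoxidase, had 1612, 1636 and 1643 in WT and 1608, 1564 and 1689.7 in Irf1-/- cultures. Its log2 fold change was -0.0094 with a 95% interval of -0.13 to 0.11, so that a difference as large as that of Mvd lay outside the interval. Ebp, the sterol isomerase gene on the X chromosome, had 441, 427 and 448 in WT and 531, 524 and 474 in Irf1-/- cultures. Its groups did not overlap, and with a log2 fold change of 0.22 the adjusted p was 0.0528 in limma. Without Irf1-/- replicate 3 Ebp was called higher (adjusted p = 0.0226 in limma, 0.00362 to 0.174 over the alternatives). Msmo1, Nsdhl, Hsd17b7 and Dhcr7 had overlapping groups and log2 fold changes from -0.12 to 0.11. The value of Hsd17b7, -0.12, was -0.25 without Irf1-/- replicate 3, -0.04 without Irf1-/- replicate 2 and -0.08 without Irf1-/- replicate 1, and in replicates 1 and 2 alone it was -0.29 and called lower (limma adjusted p = 0.0076, with 0.0076 to 0.832 over the alternatives). Nsdhl is also X-linked, and its value in WT replicate 3, the WT library with Xist, was 518 against 457 and 465 in the other WT cultures.

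None of the 5 genes for sterol sensing was called. Srebf2, which encodes the SREBP that drives sterol synthesis, had 4974, 5052 and 5245 normalized counts in WT and 4710.1, 4342 and 4947 in Irf1-/- cultures. All Irf1-/- values were below all WT values, with a log2 fold change of -0.13 and an adjusted p of 0.136 in limma. Without Irf1-/- replicate 3 it was called lower (adjusted p = 0.0465 in limma, 0.0059 to 0.394 over the alternatives). Srebf1, whose isoforms differ in their start and drive mainly fatty acid genes, had 2503, 2503 and 2779 in WT and 2474, 2442 and 2393 in Irf1-/- cultures. Its genotypes also did not overlap, yet only WT replicate 3 stood apart from the rest, and the log2 fold change was -0.09 (limma adjusted p = 0.282). Insig1, a target of SREBP and its brake, had 1596, 1615 and 1272 in WT and 1587, 1441 and 1318 in Irf1-/- cultures. It was lowest in replicate 3 of either genotype, and its log2 fold change was -0.04 with a 95% interval of -0.25 to 0.17. Insig2 had 188, 179 and 197 in WT and 214, 219 and 219 in Irf1-/- cultures, with a log2 fold change of 0.21 and an adjusted p of 0.119 in limma. Scap had means of 1208 and 1213, with a 95% interval of the log2 fold change from -0.14 to 0.15.

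Fatty acid synthesis held 2 lower members and none higher among 5. Fasn (chromosome 11 from 120805846 to 120824547), the fatty acid synthase that builds palmitate, had 11818, 11042 and 10693 normalized counts in WT and 9587, 8995 and 8866 in Irf1-/- cultures. Its mean fell from 11185 ± 576 (SD, n = 3) to 9149 ± 385 (SD, n = 3), a log2 fold change of -0.29 (SE 0.0557, limma adjusted p = 0.00452). The call was kept under all 18 alternative settings, at adjusted p-values from 1.23e-08 to 0.0430. Acaca (chromosome 11 from 84129672 to 84401651) encodes the acetyl-CoA carboxylase that supplies malonyl-CoA to Fasn. It had 932, 822 and 870.4 in WT and 757, 681 and 733 in Irf1-/- cultures, with a log2 fold change of -0.27 (limma adjusted p = 0.0169, 6.72e-04 to 0.0823 over the alternatives). The call of Acaca was lost without WT replicate 1 (adjusted p = 0.0823) or Irf1-/- replicate 2 (0.0696) and with no trend (0.0648) in limma. Acly, the citrate lyase that provides acetyl-CoA to both pathways, had means of 5158 and 5122 and a log2 fold change of -0.0088 with a 95% interval of -0.14 to 0.12. Fasn, Acaca, Acly and Srebf1 lie on chromosome 11, as does Irf1, at distances from 6.42 Mb for Srebf1 to 67.0 Mb for Fasn.

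The desaturase genes Scd1 and Scd2 are paralogues that lie close together on chromosome 19, and how reads matching both were counted was not stated. Scd2 had 23761, 23566 and 25799 in WT and 22310.1, 20468 and 22017 in Irf1-/- cultures. Its groups did not overlap, and with a log2 fold change of -0.17 the adjusted p was 0.0511 in limma (0.00146 to 0.174 over the alternatives). It passed the threshold under 9 of 18 alternatives, among them edgeR (adjusted p = 0.0361), DESeq2 (0.0313) and the fit without Irf1-/- replicate 3 (0.0482). Scd1 had 4936, 5055 and 7320.4 in WT and 7025, 6575 and 7061 in Irf1-/- cultures. WT replicate 3 held the highest Scd1 value of all 6 libraries, while WT replicates 1 and 2 held the lowest. The log2 fold change of Scd1 was therefore 0.28 with all libraries (limma adjusted p = 0.127), 0.46 without WT replicate 3 (adjusted p = 4.81e-05, with 1.56e-13 to 0.982 over the alternatives), and -0.09 in the 4 libraries with Xist (adjusted p = 0.560). The low values of Scd1 coincide with the WT libraries that held Y-linked transcripts. The part of that difference in the result was not tested beyond these values.

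**Figure D3:**
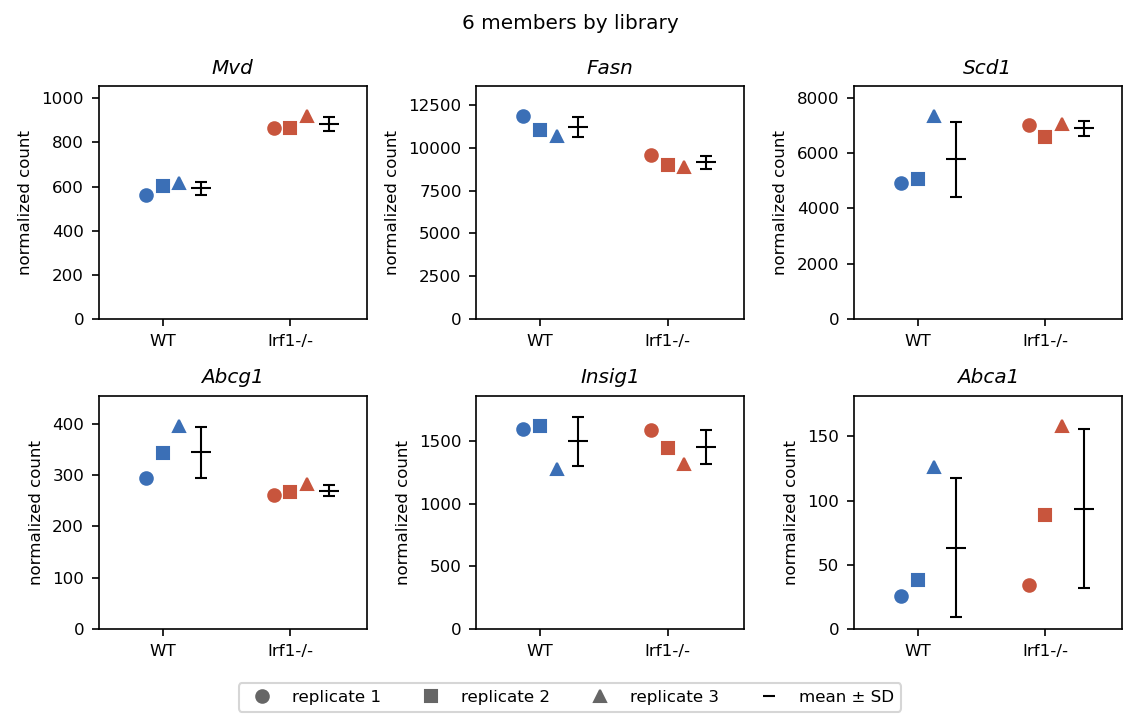
Normalized counts of 6 members in each library (vertical axes start at 0), with a symbol for each replicate and the mean ± SD (n = 3) beside each group. Mvd and Fasn separate by genotype, Scd1 in WT replicate 3 matches the Irf1-/- cultures, and Abca1 is highest and Insig1 lowest in replicate 3 of each genotype.

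Of the 3 genes that move sterols, 1 was called. Abcg1 (chromosome 17 from 31057675 to 31117988), which exports cholesterol to lipoproteins, had 295, 343 and 395 normalized counts in WT and 260.3, 266 and 282 in Irf1-/- cultures. Its log2 fold change was -0.34 (SE 0.107, limma adjusted p = 0.0406, 0.00284 to 0.121 over the alternatives). The groups did not overlap, but the call was lost without WT replicate 2 (adjusted p = 0.111), WT replicate 3 (0.109), Irf1-/- replicate 1 (0.121) or Irf1-/- replicate 2 (0.111) in limma. It was also lost in DESeq2 (adjusted p = 0.0598), with TMM factors (0.0506) and with no trend in limma (0.0976). Abca1, the other efflux transporter gene, had 26.2, 38.5 and 126 in WT and 34.6, 88.8 and 158 in Irf1-/- cultures. It was highest in replicate 3 of each genotype, the libraries with the most reads, and its log2 fold change was 0.63 with a 95% interval from -0.65 to 1.92. Leaving out 1 library moved this log2 fold change between 0.14 (without Irf1-/- replicate 3) and 1.28 (without WT replicate 3), and it was 0.17 without WT replicate 1 and 1.21 without Irf1-/- replicate 1. Its sign turned with the Y-linked covariate (-0.36) and in the 4 libraries with Xist (-0.67). In replicates 1 and 2 alone it was 0.79 and called higher (limma adjusted p = 0.0270, with 0.0103 to 0.884 over the alternatives). The myeloid markers Lyz2 and Cd14 stood at 7.03 and 3.83 in Irf1-/- replicate 3 and at 559 and 334 in Irf1-/- replicate 2, and the part of other cell types in the Abca1 values was not tested. Stard4, a carrier of cholesterol between membranes, had 1468, 1402 and 1515 in WT and 1476, 1412 and 1770 in Irf1-/- cultures, a log2 fold change of 0.08 with overlapping groups.

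**Figure D4:**
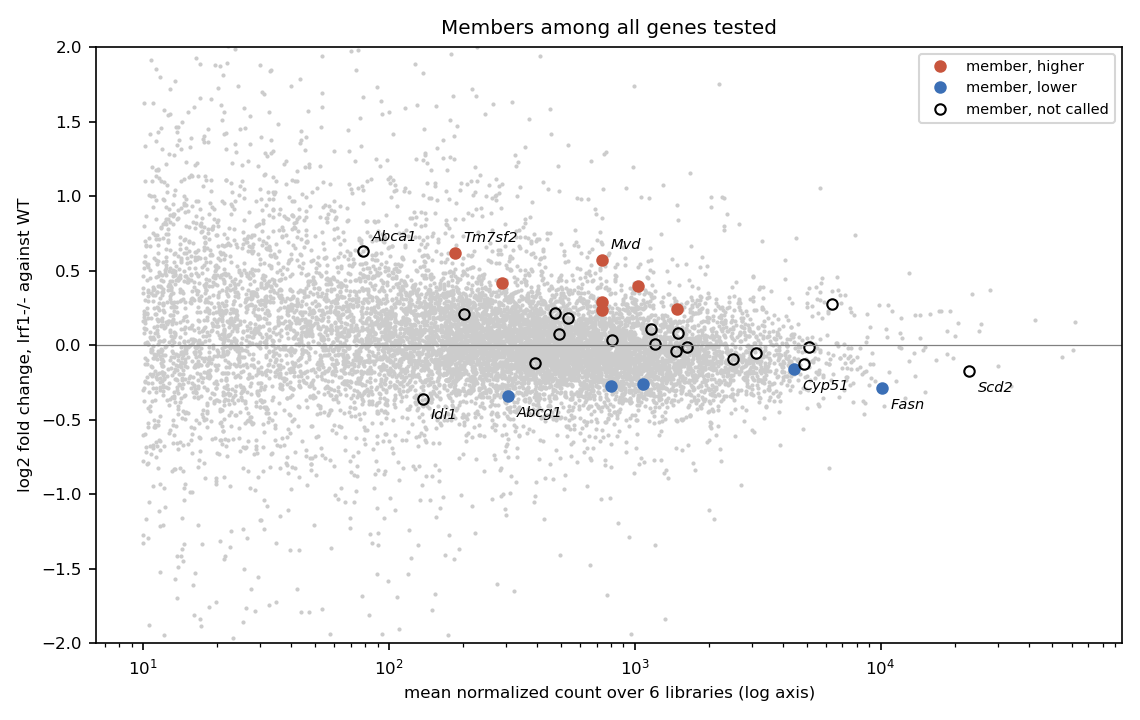
Log2 ratio of Irf1-/- to WT cells plotted against the mean normalized count (log axis) for all 11379 genes tested (grey) and the 31 members (red higher, blue lower, open circles not called). The members lie at medium to high levels with log2 fold changes from -0.36 to 0.63, and 106 other genes lie beyond the plotted range of -2 to 2.

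A further list of 43 genes of sterol and fatty acid handling outside the members had 42 genes in the table and 35 tested. Of the 35, 4 were higher and 5 lower in Irf1-/- cells, or 25.7%, close to the 23.7% of all genes tested. Rnf139, a sterol-responsive ubiquitin ligase of the endoplasmic reticulum, was lower with a log2 fold change of -0.50, and 22.3% of its exon bases lie across from Tatdn1. Npc2, which passes cholesterol out of lysosomes, was lower by -0.37, whereas Soat1, which esterifies cholesterol for storage, was higher by 0.39 and Scarb1, a receptor for high-density lipoprotein, by 0.27 on the log2 scale. Among genes of fatty acid handling, the acyl-CoA synthetase genes Acsl5 and Acsl3 were lower, with log2 fold changes of -0.57 and -0.30. Acsl5 had the lowest adjusted p of the list, 4.16e-05 from limma, with values of 3543, 3509 and 3697 in WT and 2451, 2331 and 2464 in Irf1-/- cultures. Acsl3 shares 5.60% of its exon bases with Utp14b, which was also lower by -0.36, and lost its call without WT replicate 1 (adjusted p = 0.0624 in limma) or Irf1-/- replicate 2 (0.0560) and in DESeq2 (0.0636), with 0.00304 to 0.0636 over the alternatives. Mid1ip1, an X-linked gene whose product activates acetyl-CoA carboxylase, was higher by 0.51, with 235, 243 and 297 in WT and 361, 366 and 371 in Irf1-/- cultures. Its highest WT value was that of replicate 3, the WT library with Xist, and in the 4 libraries with Xist the log2 fold change was 0.30 and not called (limma adjusted p = 0.161, 9.61e-07 to 0.0268 over the 18 alternative settings). Rxra, the partner of the LXR receptors, was higher by 0.29.

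The receptor genes differed in level, with Nr1h2, encoding LXRβ, at 664 to 693 in WT and 695 to 728 in Irf1-/- cultures, and Nr1h3, encoding LXRα, at 6.93 or less in all libraries. Ch25h, named after its values were seen, encodes the enzyme that makes 25-hydroxycholesterol and is known as an interferon-inducible gene. It had 12.5, 13.2 and 16.0 normalized counts in WT cultures, 9.71 in Irf1-/- replicate 2 and 0 in the other Irf1-/- cultures. Its mean was below the filter of 10, and without a filter it was called lower at an adjusted p of 0.0232 in limma. Irf1-/- replicate 2, the Irf1-/- culture with Ch25h reads, also held the most Lyz2 and Cd14, and the part of myeloid cells in this value was not tested.

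In the 4 libraries with Xist, WT replicate 3 against the 3 Irf1-/- cultures, all 12 called members kept their sign. There, 3 members were called higher and 1 lower, where 3.44% of all genes were higher and 3.44% lower, 6.89% in all, with the lone WT library assumed to vary like the others. They were Mvd at 0.52 on the log2 scale (limma adjusted p = 0.0121, with 3.53e-10 to 0.00687 over the 18 alternative settings), Fdps with 0.34 (0.0472, with 1.06e-07 to 0.0171), Tm7sf2 with 0.81 (0.0118, with 6.69e-05 to 0.0223) and Abcg1 with -0.55 (0.0325, with 0.00284 to 0.121). Fasn and Sc5d had log2 fold changes of -0.23 and -0.20 in this subset and were not called. Of the further list, Scarb1 at 0.18 and Acsl3 at -0.35 also lost their calls in this subset (limma adjusted p = 0.263 and 0.109, with 5.83e-05 to 0.0485 and 0.00304 to 0.0636 over the 18 alternative settings). With the level of Y-linked transcripts as a covariate, 7 members were lower and 6 higher, where 21.9% of all genes tested were called in either direction. Among the 12 members called without the covariate, only Lss lost its call, with a log2 fold change of 0.19 (limma adjusted p = 0.0544, 3.01e-04 to 0.0719 over the 18 alternative settings).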

How the data were processed

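Reads from poly(A) RNA were aligned by the authors to GRCm38 with STAR 2.4.0b and counted per Ensembl gene with featureCounts, per the labels and the study's methods. The deposited signal is a normalized count, reads divided by a DESeq2 size factor of the library. All values were whole multiples of 1 step per library, which gave back whole reads for 100% of non-zero values (tolerance 0.01 reads). Strand setting and treatment of multi-mapping reads were not given in the sources used here, and reads of overlapping genes cannot be told apart.

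Symbols came from GENCODE by Ensembl identifier, for 40254 of 41388 genes. The log2 of the normalized count plus 1 was compared in limma 3.58.1 (R 4.3.3) with a mean-variance trend, for the 11379 genes whose mean reached 10, and p-values were adjusted by Benjamini-Hochberg over all of these. Intervals are limma's moderated 95% intervals, and p-values measure the spread between cultures. The unit called for limma, and edgeR 4.0.16 and DESeq2 1.42.0 on recovered reads, both adjusted the same way, were alternatives. The fits were tested on simulated data, where limma called 20 of 74 genes changed 1.25-fold. It called 39 of 57 changed 1.5-fold, 55 of 69 changed 2-fold and 12 of 11179 unchanged genes. The members and lists were chosen with earlier results of these data known. Named are all members, the called genes of the further list except some results not reported here, and those said to be chosen later. The rule for printing promoters, called members with a TCACNCCAC match, found none, so that another was used. Replicates 1 and 2 of each genotype were closer than either was to replicate 3, with chi-square per degree of freedom of 1.28 and 1.81 against 5.99 to 7.34, all above 1.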

Additional observations from a re-analysis of the deposited data

How the results depend on the processing

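Alternatives were other pseudocounts, filters, scalings and tools, a replicate block, a Y-linked covariate, each library left out in turn, and subsets of libraries. The 7 higher and 5 lower called members kept their direction under all of them, and 7 of the 12 kept their call under the 18 with a test, not counting the 4 libraries with Xist, chosen after seeing the data. The lower members numbered 2 with no trend (7.09% of all genes), 8 with the replicate block (18.6%), 10 in replicates 1 and 2 alone (18.3%), 1 in the 4 libraries with Xist (3.44%), and 2 to 7 with a library left out (7.26% to 12.9%). The higher members numbered 11 with the replicate block (16.6%), 11 in replicates 1 and 2 alone (15.9%), 3 in the 4 libraries with Xist (3.44%), and 6 to 9 with a library left out (7.02% to 12.1%). Of the further list, 9 genes were higher with the replicate block, and 3 were lower and 2 higher in the 4 libraries with Xist. Same-numbered cultures deviated together with correlations of 0.0922, 0.269 and 0.321 over genes, and since the lowest is under 0.1 the block is given only here. Differently numbered cultures had correlations from -0.306 to 0.0838, and those between a replicate 3 and a replicate 1 or 2 were all negative. With the block Pmvk, Idi1, Ebp, Srebf2, Scd1, Scd2 and Abca1 were called in addition to the 12. The median over members was 0.085 with quantile normalization, -0.0072 with the Y-linked covariate, -0.020 in the 4 libraries with Xist, and 0.025 to 0.075 with a library left out. The cause of these shifts was not tested.

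Signs changed only for members that were not called. With TMM factors the log2 fold change was 0.0018 for Sqle and 0.0023 for Acly, and with quantile normalization 0.018 for Hmgcs1, 0.044 for Sqle, 0.022 for Insig1 and 0.024 for Acly. With the Y-linked covariate it was -0.0072 for Nsdhl, -0.013 for Dhcr7, 0.13 for Insig1, -0.0025 for Scd1 and -0.36 for Abca1. In replicate 3 alone, a difference of 2 libraries with no test, it was 0.21 for Hsd17b7, 0.094 for Hmgcs1, 0.040 for Sqle, 0.050 for Insig1, -0.073 for Scap and -0.052 for Scd1. In replicates 1 and 2 alone it was -0.0038 for Dhcr7 and 0.018 for Acly. In the 4 libraries with Xist it was -0.033 for Nsdhl, -0.00050 for Dhcr7, 0.18 for Insig1, -0.089 for Scd1 and -0.67 for Abca1. With a library left out it ranged from -0.040 to 0.016 for Sqle, -0.15 to 0.025 for Insig1, -0.049 to 0.048 for Scap, -0.054 to 0.036 for Acly, -0.022 to 0.078 for Dhcr7 and -0.017 to 0.15 for Stard4. The lowest read number of any member in a library was 21, for Abca1.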
